A study of Homo sapiens with 72 samples.

Results

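Normal human dermal fibroblasts, primary connective-tissue cells of the skin, were exposed for 24 h to 0.04 µM omaveloxolone and compared with wells that received DMSO, the solvent, alone. The comparison was chosen by label and covered 36 of the 72 wells of the series: 4 wells at 0.04 µM (K18, K8, L18 and L8, replicates 1 to 4) and 32 DMSO wells in plate columns 2 and 23. All wells held wildtype cells, seeded at 1250 cells per well of a 384-well plate, and every gene of the deposited table entered the test. The 4 wells carry biological replicate numbers, but the labels name 1 fibroblast stock and no separate cultures or donors. The p-values below therefore measure the spread between wells, which may be technical. The protocol names 16 DMSO wells per plate, whereas 32 wells of this table carry the DMSO label, and all 32 were used.

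Omaveloxolone is a synthetic triterpenoid that activates NRF2. It binds KEAP1, the adaptor that normally sends the transcription factor NRF2 (gene NFE2L2) for destruction. Freed NRF2 pairs with small MAF proteins, competes with the repressor BACH1 and switches on genes that carry antioxidant response elements in their control regions. Those genes encode enzymes that reduce quinones and carbonyls, make and recycle glutathione and thioredoxin, degrade heme, store iron and supply NADPH.

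Polyadenylated RNA was read by DRUG-seq, which barcodes each well and counts reads from the 3′ ends of transcripts. The 4 wells at 0.04 µM held 5449430 to 7796124 counts and the DMSO wells 4910833 to 8685531, a ratio of means of 1.03 (exact two-sided permutation test over 58905 splits, p = 0.724). By the same exact permutation test, genes detected (13779 ± 397, SD, n = 4, against 13923 ± 467, n = 32, p = 0.564) and the share of counts on mitochondrially encoded mRNAs (0.904% ± 0.220 against 0.955% ± 0.173, p = 0.592) also differed by less than the spread between wells. After adjustment over these 3 exact tests each p was 0.724. Marker levels are given in CPM, counts scaled to library size, without TMM. Levels of single genes further below are CPM after TMM. All 12 fibroblast markers were detected. Their summed levels were 60097 to 69924 CPM at 0.04 µM and 69074 to 82892 CPM in DMSO, ranges that met only at their ends. The part of these markers in the results below was not tested. Endothelial markers had no member with a mean over 1 CPM in either group, keratinocyte markers 2 of 6 measured (KRT10 and DSP), and melanocyte markers 1 of 5 (MITF). Leukocyte markers had CD68 over 1 CPM in both groups and CD14 in DMSO only, with summed levels of 90.4 to 143 CPM at 0.04 µM and 92.5 to 179 CPM in DMSO. Of 6 pericyte and smooth muscle markers, NOTCH3 and CSPG4 were over 1 CPM in both groups and RGS5 and DES at 0.04 µM, with summed levels of 7.31 to 17.0 CPM against 3.00 to 25.9 CPM. Plate position was unequal between the groups: the treated wells lay in columns 8 and 18, the DMSO wells in columns 2 and 23. Column and treatment cannot be told apart against DMSO. Wells at 0.0005 µM, the lowest dose, in rows K and L, serve below as a second reference. They lay in columns 12 and 22, and each dose had columns of its own. Dose and column therefore cannot be told apart in any comparison between doses either.

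Promoters of NRF2-regulated genes that rose are shown first, since the core of the antioxidant response element can be read in them. Promoter windows from RefSeq (GRCh38.p14, 250 bases before to 50 after a start) were searched on both strands for TGACNNNGC. The capitals mark the match, which reads GCNNNGTCA where the element lies on the opposite strand. The stretches are chr1:93909431-93909509 (GCLM, minus strand), chr12:104286885-104286983 (TXNRD1, plus strand), chr6:83431135-83431233 (ME1, minus strand), chr11:62881617-62881698 (SLC3A2, plus strand) and chr11:67583701-67583799 (GSTP1, plus strand), each written on the strand of its gene and ending at or before the start.
GCLM: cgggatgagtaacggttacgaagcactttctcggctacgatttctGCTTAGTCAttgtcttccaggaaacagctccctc
TXNRD1: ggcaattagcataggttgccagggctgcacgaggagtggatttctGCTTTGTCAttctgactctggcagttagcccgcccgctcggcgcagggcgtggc
ME1: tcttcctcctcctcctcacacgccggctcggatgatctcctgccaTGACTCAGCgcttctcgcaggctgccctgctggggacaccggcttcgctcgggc
SLC3A2: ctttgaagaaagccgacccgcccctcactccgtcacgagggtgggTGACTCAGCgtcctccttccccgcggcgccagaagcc
GSTP1: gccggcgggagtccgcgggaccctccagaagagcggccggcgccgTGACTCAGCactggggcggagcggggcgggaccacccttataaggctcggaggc
ME1, SLC3A2 and GSTP1 carry the same 9 letters, and the GCLM and TXNRD1 elements printed lie 34 and 102 bases before their starts. The stretches are a selection: windows of PGD, EPHX1 and CBR1 and another TXNRD1 window also matched before a start. Their letters differ from those shared by ME1, SLC3A2 and GSTP1, and they are not printed. The motif is common: 13.3% of all 35116 windows hold it, and 19.2% of the 10919 tested genes with a window have it in at least 1. Of the genes called higher below, 61 had a window and 13 of these (21.3%) held the motif, and of the genes called lower 5 of 22 did (22.7%). Among the risers on the NRF2 lists 9 of 29 did (31%), and among all tested members of those lists, risen or not, 20 of 77 did (26%). A match is a description of letters, not a bound site.

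At 0.04 µM few genes passed the test, and 39 of the 86 rises were on the NRF2 lists. Those lists were drawn up with earlier results of these data known, and 42 of the rises were on no list. With edgeR's quasi-likelihood test on all 72 wells, 113 of 14263 genes passed a Benjamini-Hochberg adjusted p of 0.05 (0.792%): 86 were higher (0.603%) and 27 lower (0.189%) than in DMSO. In 55 of the 86 and 16 of the 27, all 4 treated wells lay beyond every DMSO well, while over all genes tested 68 lay wholly above (0.477%) and 28 wholly below (0.196%). Of the called genes, 21 of the 86 rises and 13 of the 27 falls were under 2-fold. The median log2 change of all genes was -0.05. Fits of the 0.04 µM and DMSO wells alone called 163 higher (1.22%) and 159 lower (1.19%) of 13381 genes, so the balance between rises and falls depended on which wells set the spread. With the controls limited to the 4 DMSO wells in the treated rows, K and L, 18 genes were called, all higher. Against the 0.0005 µM wells, 26 genes were higher and 5 lower, with only 4 wells as reference. In that comparison 84 of the 86 rises and all 27 falls kept their sign, and 77 and 22 of them kept their size within 1.5 times. The same 4 treated wells gave the calls, so a kept sign was in part set in advance.

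**Figure D1:**
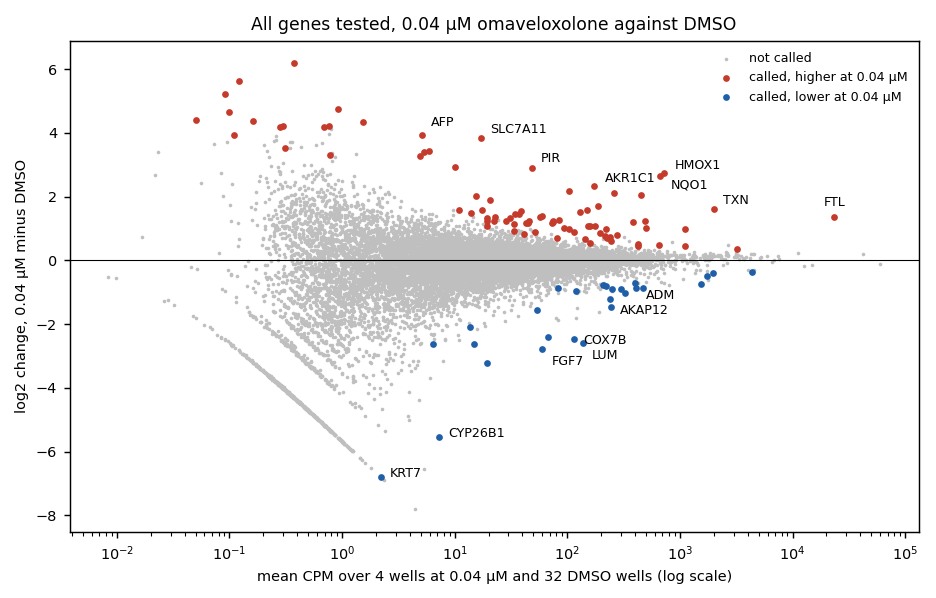
Log2 change (0.04 µM minus DMSO) against mean CPM for every gene tested, where each point is 1 gene and coloured points passed an adjusted p of 0.05. The 86 genes higher include very abundant ones such as FTL and TXN. A mean under 10 CPM was found for 19 of the 86 higher and 3 of the 27 lower genes. By the same edgeR test, 1113 genes had an unadjusted p under 0.05.

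The 7 lists of NRF2-related genes, drawn up with earlier results of these data known, held 99 tested genes. Of these 39 rose and none fell at an adjusted p of 0.05, and 38 had all 4 wells above every DMSO well. Their median log2 change was 0.51, beside -0.05 over all genes tested. The other 21 lists held 5 of the called rises and 6 of the called falls, and 42 of the 86 higher and 21 of the 27 lower genes were on no list.

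**Figure D2:**
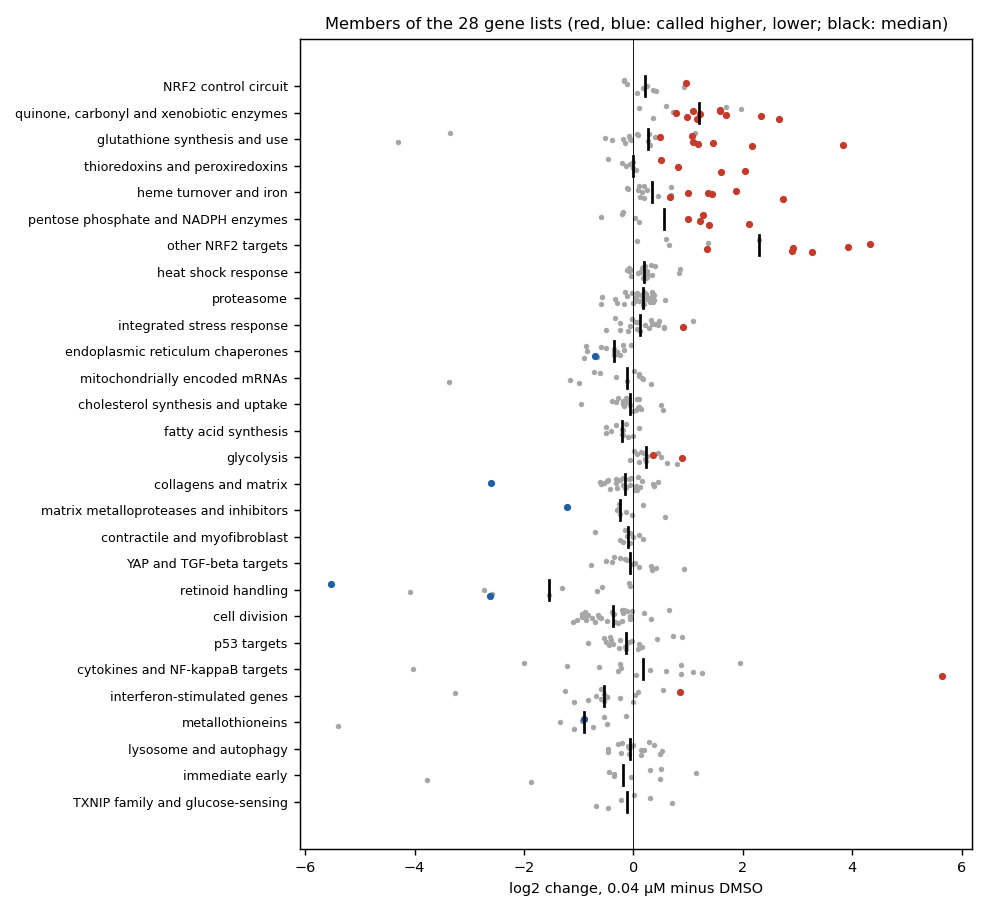
Log2 change (0.04 µM minus DMSO) of each tested member of the 28 lists, 1 point per gene, with red and blue for members called higher and lower and a black line at the median of the list. The called members of the 7 NRF2-related lists at the top are all red, and the other lists hold few coloured points.

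Enzymes that reduce quinones and carbonyls rose most evenly: 10 of 16 tested passed, all upward, with a median log2 change of 1.19. NQO1, which reduces quinones with NADH or NADPH, lies on chromosome 16 at 69706996 to 69726951 (GRCh38). It stood at 2490, 2708, 2576 and 2774 CPM in replicates 1 to 4 and at 326 to 535 CPM in DMSO (median 424). The groups were far apart, with a fold change of 6.29 (log2 2.65 ± 0.12, SE, edgeR adjusted p = 1.41e-29) and the same log2 value, 2.65, within each plate side. AKR1C1, a carbonyl and ketosteroid reductase, was at 584, 665, 478 and 653 CPM against 90.5 to 155 CPM in DMSO (median 114), 5.03-fold higher (log2 2.33 ± 0.16, adjusted p = 9.05e-20). Its relatives AKR1C2 and AKR1C3 rose 3.25-fold and 2.34-fold. The AKR1C genes are near copies of each other, so how reads were divided among them is uncertain.

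PTGR1, which reduces prostaglandin metabolites and reactive alkenals, was at 392, 379, 297 and 410 CPM against 74.8 to 167 CPM in DMSO (median 119), and its 3.02-fold rise left a wide gap between the groups (adjusted p = 1.52e-14). EPHX1, the microsomal epoxide hydrolase, rose 2.24-fold and CBR1, a carbonyl reductase, 1.71-fold. ABCC1, which exports glutathione conjugates, rose 2.99-fold (52.8, 33.6, 32.0 and 52.0 CPM against 4.87 to 25.4), but its adjusted p of 0.0102 became 0.124 without replicate 1 and 0.122 without replicate 4. CBR3 (log2 0.72, adjusted p = 0.0688) and UGDH (log2 0.36, adjusted p = 0.712) did not pass.

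Of 23 tested genes of glutathione synthesis and use, 7 rose and none fell, with a list median of 0.26. SLC7A11, the cystine importer that feeds glutathione synthesis, was at 93.7, 141, 110 and 54.7 CPM against 0 to 20.4 CPM in DMSO (median 4.98). Every treated well was above every DMSO well, and the 14.2-fold rise (log2 3.83 ± 0.41, adjusted p = 4.64e-11) was joined by its partner chain SLC3A2, 2.27-fold higher. GCLM, the modifier subunit of glutamate-cysteine ligase, stood at 303, 362, 360 and 322 CPM against 34.3 to 119 CPM (median 75.8), 4.52-fold higher (log2 2.17 ± 0.21, adjusted p = 7.75e-13).

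The catalytic subunit GCLC gave no such result. Its wells at 0.04 µM read 32.1, 1.66, 2.64 and 22.3 CPM, spread as widely as the DMSO wells (0.621 to 31.1 CPM), with a log2 change of 0.31 ± 0.68 (adjusted p = 0.969). GSR, which regenerates glutathione, rose 2.73-fold, GLRX, a glutaredoxin, 2.12-fold, GSTM3 2.11-fold and GSTP1 1.40-fold. GSTP1 lost its call without replicate 1, 2 or 4 (adjusted p 0.129 to 0.226).

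The thioredoxin arm rose in 4 of 11 tested genes and its list median was 0.00. TXN, thioredoxin itself, was at 5180, 5143, 4628 and 4754 CPM against 1221 to 1970 CPM in DMSO (median 1606). That is a 3.03-fold rise with little spread among wells (log2 1.60 ± 0.09, adjusted p = 2.37e-25). TXNRD1, the reductase that recharges it, was at 1385, 1463, 1294 and 1349 CPM against 271 to 420 CPM (median 333), 4.12-fold higher (adjusted p = 1.64e-22). The peroxide-scavenging PRDX1 rose 1.75-fold and PRDX6 1.42-fold, and both calls depended on single wells: PRDX1 had adjusted p-values of 0.0687 to 0.117 without replicate 1, 2 or 3, and PRDX6 of 0.0673 to 0.404 without replicate 2, 3 or 4. SRXN1, sulfiredoxin, was below the count filter and was not tested.

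Heme breakdown and iron handling gave 6 rises among 18 tested genes and no fall (median 0.34). HMOX1, heme oxygenase 1, lies on chromosome 22 at 35380361 to 35394214 (GRCh38). It was at 2551, 3618, 2690 and 2860 CPM against 296 to 593 CPM in DMSO (median 436). Every treated well stood far above the highest DMSO well, and the 6.67-fold rise (log2 2.74 ± 0.14, adjusted p = 1.45e-27) was 2.76 and 2.70 on the log2 scale within the left and right plate sides. FTL, the ferritin light chain that stores iron, was abundant already in DMSO: 50171, 55431, 46146 and 54969 CPM against 16192 to 22597 CPM (median 20003), 2.59-fold higher (log2 1.37 ± 0.07, adjusted p = 2.93e-27). The heavy chain FTH1 rose 1.99-fold.

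SLC48A1, which carries heme across membranes, rose 2.71-fold and SLC40A1, the iron exporter ferroportin, 3.69-fold. The SLC40A1 call rested partly on replicate 3, without which its adjusted p was 0.0533. BLVRB, a biliverdin reductase, rose 1.58-fold but only 0.39 on the log2 scale against the 0.0005 µM wells, and lost its call when any 1 treated well was left out. BLVRA, the other biliverdin reductase on the list, did not pass (log2 0.12, edgeR adjusted p = 0.964).

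Among 10 genes of the pentose phosphate route and NADPH supply, 5 rose (median 0.56). PGD, the second NADPH-producing enzyme of the route, was at 838, 822, 747 and 851 CPM against 145 to 248 CPM (median 187), 4.33-fold higher (adjusted p = 2.12e-18). TALDO1 rose 2.31-fold and TKT 2.01-fold, the last with wells between 886 and 934 CPM, all above the DMSO maximum of 519 CPM. ME1, malic enzyme, rose 2.40-fold.

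Of the remaining NRF2 targets 6 of 11 tested were higher, with a median log2 change of 2.30, the highest of the 7 NRF2 lists. PIR, an iron-binding nuclear protein, was at 205, 210, 207 and 221 CPM against 11.0 to 49.6 CPM in DMSO (median 28.9), 7.47-fold higher with hardly any spread among the treated wells (log2 2.90 ± 0.25, adjusted p = 2.52e-15). OSGIN1, an oxidative-stress-induced growth regulator, went from 0 to 11.0 CPM in DMSO (median 1.99) to 25.6, 25.9, 12.4 and 34.0 CPM, 9.58-fold. AFP, alpha-fetoprotein, better known from fetal liver, went from 0 to 8.31 CPM (median 0.702) to 25.9, 40.6, 24.4 and 29.6 CPM, 15.2-fold higher (adjusted p = 1.54e-05). TRIM16L rose 7.58-fold and the pseudogene NMRAL2P 20.0-fold from a DMSO median of 0. TRIM16L and TRIM16 are near copies, so their division of reads is uncertain, and TRIM16 (2.53-fold) lost its call without replicate 2 or 4.

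**Figure D3:**
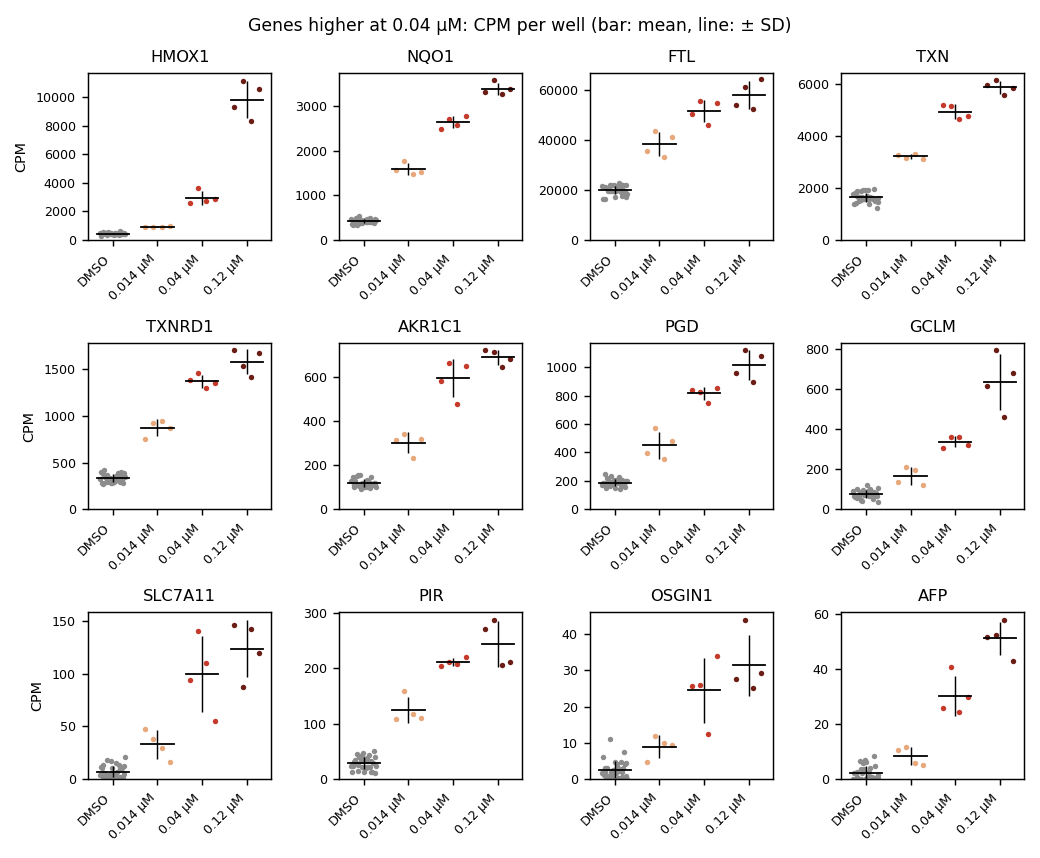
CPM per well for 12 genes higher at 0.04 µM, in DMSO (32 wells) and at 0.014, 0.04 and 0.12 µM (4 wells each), with a bar at the mean and a vertical line of ± 1 SD that is not drawn below 0. The 0.04 µM wells lie above all DMSO wells in each panel, and the HMOX1 mean goes from 923 CPM at 0.014 µM to 9822 CPM at 0.12 µM.

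Of the 10 genes of the NRF2 control circuit, 1 passed in the fit of all wells and 2, both higher, with DESeq2's Wald test, as many as when edgeR was fitted to the 0.04 µM and DMSO wells alone. SQSTM1 was at 169, 195, 161 and 211 CPM against 78.4 to 109 CPM in DMSO (1.96-fold higher, adjusted p = 0.000103); its product p62 binds KEAP1. NFE2L2 itself had 162, 154, 151 and 120 CPM against 87.6 to 218 CPM (log2 0.06 ± 0.21, adjusted p = 0.98). KEAP1 (log2 0.41 ± 0.20, adjusted p = 0.622) and BACH1 (log2 0.36 ± 0.25, adjusted p = 0.807) also overlapped with DMSO. MAFG, a small MAF partner, was at 63.2, 64.6, 86.9 and 55.1 CPM against 15.0 to 57.1 CPM, a log2 difference of 0.93 ± 0.27 that did not pass (adjusted p = 0.101).

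Several further rises came from genes on no list. NR0B1, a nuclear receptor without a DNA-binding domain of the usual kind, was at 45.3, 69.2, 24.5 and 49.2 CPM against 5.05 to 23.7 CPM in DMSO (median 11.0), 4.03-fold higher (adjusted p = 1.36e-07). UCHL1, a ubiquitin hydrolase best known from neurons, was at 333, 351, 243 and 293 CPM against 74.0 to 140 CPM (median 109), 2.85-fold higher (adjusted p = 3.15e-11). Both groups of wells were fully separate for these 2 genes. DCLK2, a microtubule-linked kinase, rose 10.9-fold from a DMSO median of 2.05 CPM, and SMIM43 10.5-fold from 0.814 CPM, with the SMIM43 call lost without replicate 2 (adjusted p = 0.086) or 3 (0.0639). NQO2, a relative of NQO1, rose 2.28-fold against DMSO, but its log2 change was 0.64 in place of 1.19 with the 0.0005 µM wells as reference.

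Among the 27 falls, 2 belonged to the 11 genes of retinoid handling, whose median was -1.55 against DMSO and -0.66 against the 0.0005 µM wells. DHRS3, which turns retinaldehyde back into retinol, was at 1.82, 0.301, 3.57 and 5.06 CPM against 6.71 to 29.8 CPM in DMSO (median 16.0). All treated wells were below all DMSO wells, a 6.12-fold lower level (log2 -2.61 ± 0.48, adjusted p = 0.000235), and the difference was -2.91 against the 0.0005 µM wells. CYP26B1, which degrades retinoic acid, was at 0.14, 0.452, 0 and 0 CPM against 0.57 to 24.4 CPM (median 5.57), with an adjusted p of 0.0123 that rose to 0.0837 to 0.0999 without replicate 1, 3 or 4. CRABP2, the cellular retinoic acid carrier, was at 113, 116, 123 and 104 CPM, below all DMSO wells (145 to 277 CPM), yet its log2 difference of -0.67 ± 0.20 did not pass (adjusted p = 0.0917).

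A pair of prostaglandin enzymes fell. PTGES, which makes prostaglandin E2, was at 27.6, 18.8, 21.9 and 10.3 CPM against 36.6 to 72.5 CPM in DMSO (median 57.9), 2.93-fold lower (adjusted p = 0.00181, and 0.0533 without replicate 4). PTGIS, prostacyclin synthase, was at 187, 171, 177 and 147 CPM against 274 to 431 CPM (median 348), 2.03-fold lower (adjusted p = 0.00243). For neither did the 2 groups overlap.

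AKAP12, a scaffold for protein kinase A, had the smallest adjusted p of the falls. Its wells read 90.4, 72.2, 143 and 73.5 CPM against 177 to 371 CPM in DMSO (median 261), 2.77-fold lower (log2 -1.47 ± 0.25, adjusted p = 6.09e-05) and -1.42 on the log2 scale against the 0.0005 µM wells (adjusted p = 0.00871). ADM, the vasodilator peptide adrenomedullin, was at 250, 190, 294 and 211 CPM against 305 to 562 CPM (median 425), 1.83-fold lower (adjusted p = 0.000228) and likewise lower than at 0.0005 µM (adjusted p = 0.00896). MT2A, a metal-binding metallothionein with close relatives in the genome, was at 162, 134, 141 and 129 CPM against 187 to 317 CPM, 1.86-fold lower (adjusted p = 0.00121). It was 1 call among 9 tested metallothioneins in the fit of all wells, whereas the Wald test and the fit of the 0.04 µM and DMSO wells alone each called 3 lower. TIMP3, an inhibitor of matrix proteases, was 2.33-fold lower (103, 111, 139 and 89.1 CPM against 146 to 354 CPM), with an adjusted p of 0.00504, or 0.0738 without replicate 4.

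Other large falls depended on the reference wells. COX7B, a small subunit of cytochrome c oxidase, was at 31.7, 10.8, 32.0 and 16.2 CPM against 51.8 to 184 CPM in DMSO (median 133), 5.53-fold lower (adjusted p = 0.000151). The 0.0005 µM wells averaged 44.3 ± 32.3 CPM, however, and against them the log2 difference was -0.97 (adjusted p = 0.834) in place of -2.47. LUM, the matrix proteoglycan lumican, was at 16.0, 15.7, 50.7 and 17.2 CPM against 33.2 to 335 CPM (median 137), with -2.59 against DMSO and -1.22 against 0.0005 µM (adjusted p = 0.732). FGF7, a growth factor that fibroblasts make for keratinocytes, was at 2.66, 7.98, 14.3 and 13.6 CPM against 14.0 to 120 CPM (median 67.2), with -2.79 and -0.70 (adjusted p = 1).

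For these 3 genes and ANLN, a cell-division protein 5.27-fold lower at 0.04 µM, a difference between plate positions was measured apart from the dose. In a comparison added after seeing the data, 148 of 14033 genes (1.05%) differed between the right and left sides of the plate by unequal amounts in the 24 wells of the 6 lowest doses and in the 32 DMSO wells (edgeR, adjusted p of 0.05). COX7B, LUM, FGF7 and ANLN were among them, as were VASN and AKR1C1. Within that set COX7B had a median of 15.7 CPM in the 12 low-dose wells on the left and 37.6 CPM in the 12 on the right, but 166 and 81.7 CPM in DMSO left and right. How much of the difference from DMSO at 0.04 µM goes with plate column was not tested. On each plate side taken alone, none of the 27 falls changed sign, with 23 called on the left and 19 on the right. Of the rises, 62 of the 75 testable on the left and 48 of the 80 testable on the right were called, none with an opposite sign. Each side fit used part of the wells that gave the calls, so a kept sign was largely set in advance. On each side the treated and DMSO wells still lay in different columns, so these fits cannot separate column from treatment.

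**Figure D4:**
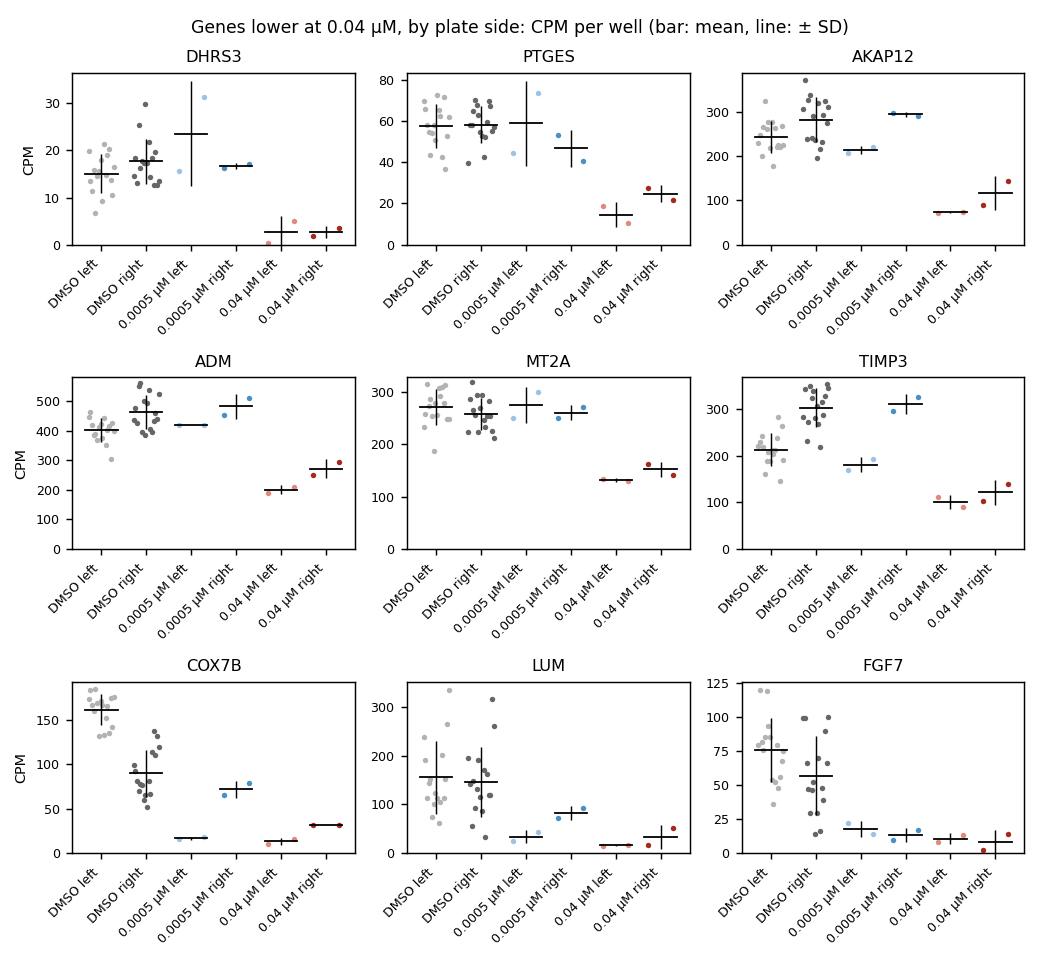
CPM per well for 9 genes lower at 0.04 µM, split by plate side, in DMSO (16 wells a side), 0.0005 µM and 0.04 µM (2 wells a side), with a bar at the mean and a vertical line of ± 1 SD that is not drawn below 0. DHRS3, AKAP12, ADM and MT2A are lower at 0.04 µM than at 0.0005 µM on both sides, while COX7B on the left and FGF7 on both sides are already low at 0.0005 µM.

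Stress and growth programmes outside the NRF2 lists showed few calls in the fit of all 72 wells. None of 22 heat shock genes (median 0.20), 33 proteasome genes (0.17), 20 p53 targets (-0.14) or 23 cholesterol genes (-0.06) passed the test in the edgeR fit of all 72 wells. At an unadjusted p under 0.05 these lists held 3, 5, 1 and 0 genes, all higher, and DESeq2's Wald test called 1 proteasome gene and none of the others. The edgeR fit of the 0.04 µM and DMSO wells alone called 1 heat shock, 5 proteasome and 1 p53 gene higher. Over all 13381 genes, that fit called 1.22% higher and 1.19% lower. In the fit of all wells, 1113 of 14263 genes had an unadjusted p under 0.05. The integrated stress response list had 1 of 23, PSAT1, a serine-synthesis enzyme 1.86-fold higher (adjusted p = 0.000855), while the endoplasmic reticulum chaperones had 1 of 17, CALR, 1.62-fold lower (adjusted p = 0.0205). All 17 chaperones had a log2 change below 0 (-0.90 to -0.04). At an unadjusted p under 0.05 edgeR gave 6 of them, all lower. The Wald test called 3 lower, and the edgeR fit of the 0.04 µM and DMSO wells alone 4 lower. The chaperone list had a median of -0.36, and among the DMSO wells alone, where 6.14% of genes were called between plate sides, the same list differed by 0.37. PFKP (1.84-fold) and GAPDH (1.28-fold) were the 2 called of 15 glycolysis genes, and both lost the call without replicate 2 or 4. In the fit of all wells, none of 31 cell-division genes on the list was called although their median was -0.37, nor any of 13 mitochondrially encoded mRNAs (-0.13), 10 contractile genes (-0.09), 14 YAP and TGF-beta targets (-0.06) or 17 lysosome genes (-0.07). At an unadjusted p under 0.05 edgeR gave 3 cell-division genes and 2 mitochondrial mRNAs, all lower, 2 YAP or TGF-beta targets and 1 lysosome gene, all higher, and no contractile gene, and the Wald test called 1 cell-division gene and 1 mitochondrial mRNA lower. The edgeR fit of the 0.04 µM and DMSO wells alone called 2 cell-division genes and 2 mitochondrial mRNAs lower.

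Fibroblast matrix genes changed little as a group. Of 28 collagen and matrix genes only LUM was called, with a list median of -0.14, beside a difference of 0.63 between right and left DMSO wells. Of 9 metalloproteases and their inhibitors, TIMP3 alone passed. The list of 17 interferon-stimulated genes had a median of -0.54. The cytokine list had 1 call of 16, CXCL8, the neutrophil chemokine interleukin 8, which had no count in any DMSO well. All 28 of its counts at 0.04 µM came from replicate 3 (4.35 CPM), and without that well its adjusted p was 1.

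Few genes separated 0.04 µM from its neighbouring doses in the fit of all 72 wells. That fit includes wells with few counts, 132317 to 208734 at 3.33 µM and 25635 to 39396 at 10 µM. These doses also lay in different plate columns, so dose and column cannot be told apart here. Compared directly with 0.014 µM, 1 gene of 14263 was called (0.00701%): HMOX1, with means of 923 ± 37.1 CPM at 0.014 µM and 2930 ± 476 CPM at 0.04 µM (log2 1.67 ± 0.24, adjusted p = 1.22e-05). None was lower in this fit of all 72 wells, in which 638 genes had an unadjusted p under 0.05. With the 3.33 and 10 µM wells left out, edgeR called 10 genes higher and 3 lower, the latter PTGIS, KRT7 and DHRS3 (adjusted p = 0.0289 each). From 0.04 to 0.12 µM, 2 genes were called (0.014%): HMOX1 rose again, to 9822 ± 1276 CPM (log2 1.75 ± 0.24, adjusted p = 3.07e-06), and MT-CO3, a mitochondrially encoded oxidase subunit, fell from 5579 ± 715 to 2335 ± 294 CPM (log2 -1.26 ± 0.24, adjusted p = 0.014). The MT-CO3 call was lost without replicate 1 or 3 at 0.04 µM, and its log2 difference from DMSO at 0.04 µM was 0.11 ± 0.18 (adjusted p = 0.952). Between 0.04 and 0.12 µM, DESeq2's Wald test also called MT-CO3 lower (adjusted p = 0.000306). So did edgeR without the 3.33 and 10 µM wells (3.58e-05) and with the wells of the 2 doses alone (2.11e-05).

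Other NRF2 targets did not pass these 2 tests. NQO1 averaged 1579 ± 133 CPM at 0.014 µM, 2637 ± 128 CPM at 0.04 µM and 3381 ± 133 CPM at 0.12 µM. TXN averaged 3207 ± 100, 4926 ± 277 and 5867 ± 251 CPM in the same order, with separate ranges of wells. TKT averaged 840 ± 81.3, 910 ± 24.1 and 841 ± 77.0 CPM. With DESeq2's Wald test 11 genes were higher and 2 lower at 0.04 than at 0.014 µM, with NQO1, TXN, TXNRD1, PGD and AKR1C1 among the 11. CRABP2 averaged 147 ± 4.94, 114 ± 7.88 and 54.2 ± 6.99 CPM at the 3 doses.

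Among genes under 10 CPM, several of the largest fitted changes had no or few counts in 1 of the groups. KRT7, a simple-epithelium keratin, had 511 counts over the DMSO wells and 0 in the 4 treated wells, at least 21.9-fold lower with 3 counts over the group as the floor. TREML3P, a pseudogene, had 0 counts in DMSO and 20 at 0.04 µM, but not in every treated well. Its counts pooled over wells were at least 51.9-fold higher on the same floor. Those of CXCL8 were at least 72.7-fold higher, all from replicate 3. These pooled bounds do not cover the spread between wells. HKDC1, a hexokinase-like enzyme, read 0, 4.36, 3.72 and 4.66 CPM against 0 to 0.337 CPM in DMSO. DLX3 had 2 counts in DMSO and 23 at 0.04 µM, a ratio of 89.6 (95% counting interval 22.1 to 784), all from replicate 1.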

How the data were processed

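The deposited table holds raw counts per gene and well, which the authors made with kallisto and bustools on GRCh38, per the submitters' processing notes; their versions, the annotation and whether UMIs were collapsed are not given in the sources used here. Of its 23170 gene identifiers, 23153 were matched to a reference list of gene names, and 21289 had a symbol. Positions and gene types came from GENCODE 29 (23078 matched). Before testing, 33 ribosomal RNA-like rows were left out (1.97% to 5.70% of the counts of a DMSO or 0.04 µM well). Over all 72 wells, these rows took up to 61.4% of the counts of a well. Genes were kept by edgeR's filterByExpr with a minimum count of 10, scaled by TMM and tested with edgeR 4.0.16 (quasi-likelihood F test, robust, all 72 wells) with Benjamini-Hochberg adjustment at 0.05. Levels are CPM after TMM, except marker levels, which are CPM without TMM. Log2 changes are fitted values, and each SE is the absolute change divided by the square root of F. CPM values are not corrected for length, so they do not compare genes. Alternatives were DESeq2 1.42.0, other wells in the fit, other references, plate side and each treated well left out. Single values per well were tested with exact permutation.

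Named genes were 12 set by name, the 15 largest rises and 15 largest falls among called genes of at least 10 CPM with all 4 wells on 1 side of the DMSO median, the 5 largest changes under 10 CPM and the 4 smallest p per list. GSTM1, GSTT1, GSTT2B, UGT2B17, HLA genes, XIST and Y-linked genes were left out, and some other genes are not reported here. NQO2 and the genes given for plate side were chosen after their values were seen. The genes compared, the lists and the rules were chosen with earlier results of these data known. Total counts were 4910833 to 8685531 per DMSO well and 5449430 to 7796124 per 0.04 µM well; counting intervals cover counting error only.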

Additional observations from a re-analysis of the deposited data

Results flagged for a closer look

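In 5 of 53 called named genes, 1 of the 4 wells at 0.04 µM lay apart from the others by Dixon's criterion for 4 values, where chance alone gives about 1 in 20; 4 of them are given here. CEMIP, a hyaluronan-degrading protein, read 8.07 CPM in replicate 3 and 0.301 to 0.42 CPM in the others. LUM read 50.75 CPM in the same well and 15.65 to 17.21 CPM in the others, and CXCL8 4.345 CPM there and 0 elsewhere. GSR read 56.46 CPM in replicate 1 beside 83.96 to 89.41 CPM. Without the well that stood apart, the adjusted p was 0.000721 for CEMIP, 0.000222 for LUM, 2.23e-06 for GSR and 1 for CXCL8.

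For 6 called genes given here the right minus left difference in the wells of the 6 lowest doses was not the one in the DMSO wells. The excess in the treated wells was 2.449 on the log2 scale for COX7B (edgeR adjusted p = 1.06e-11), 2.087 for ANLN (2e-06), 1.901 for FGF7 (0.0228), 1.331 for LUM (0.0406), -0.4059 for AKR1C1 (0.0229) and -0.4784 for VASN (0.0493).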

How the results depend on the processing

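Against DMSO, 113 genes were called. Leaving out 1 treated well in turn gave 76 to 98 (73 higher and 11 lower without replicate 4). The number rose to 288 with no filter on low counts (257 higher, 31 lower), 252 with DESeq2's Wald test (93 and 159), 242 without the 3.33 and 10 µM wells (145 and 97), 322 with the 0.04 µM and DMSO wells alone (163 and 159), 389 with plate side added to that fit (197 and 192, an alternative chosen after seeing the data) and 251 on the left plate side alone (99 and 152). It dropped to 31 with 0.0005 µM as reference and to 18, all higher, when the controls were the 4 DMSO wells in rows K and L. DESeq2 size factors (111), plate side as a covariate (128), the right side alone (121, 69 higher and 52 lower) and keeping the ribosomal RNA-like rows (114, added after seeing the data) stayed within 1.5 times. Of the 86 rises 47, and of the 27 falls 8, were called with every single treated well left out, and 8 and 3 with none.

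Between 0.014 and 0.04 µM the 1 call became 13 with the Wald test, 13 without the 2 highest doses and 9 with the wells of the 2 doses alone. Between 0.04 and 0.12 µM the 2 calls became 17, 10 and 6, and 1 to 3 with a 0.04 µM well left out.

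The replicate numbers were also fitted as a block, with 16 genes called against DMSO (15 higher, 1 lower), 0 between 0.014 and 0.04 µM and 1 between 0.04 and 0.12 µM. The samples share only a number: same-numbered deviations correlated at -5.12e-05, -0.109, -0.167 and -0.232 over 3256 genes, and no treated well correlated best with its own number. In that block fit only DMSO replicates 1 to 4 share a number with a treated well.

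Of the 53 named genes called, 53 kept their call with plate side as a covariate and 22 with the 0.0005 µM reference. Totals, genes detected and the mitochondrial share gave no call under any alternative. No named called gene changed sign under these alternatives. Among all 86 rises, 2 had the opposite sign with the 0.0005 µM reference and 1 without replicate 1, and none of the 27 falls did. All of these fits reuse treated wells that gave the calls.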

Other observations

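Called genes on no list included transporters and metabolic genes, chosen here after their values were seen. SLC1A5, a glutamine transporter, was at 151, 119, 162 and 139 CPM at 0.04 µM against 38.5 to 92.4 CPM in DMSO, 2.24-fold higher (edgeR adjusted p = 1.17e-05). STARD7, a carrier of phosphatidylcholine to mitochondria, was at 178, 181, 166 and 162 CPM against 50.5 to 119 CPM, and HTRA3, a serine protease, at 57.9, 60.7, 67.2 and 46.4 CPM against 8.97 to 51.1 CPM. The SLC1A5 and STARD7 wells lay wholly above DMSO, whereas 1 HTRA3 well overlapped. Lower genes on no list included 2 transcription factor genes, OSR2 (184, 129.6, 141 and 219 CPM against 224 to 398 CPM, log2 -0.91 ± 0.19, adjusted p = 0.00248) and TWIST2 (1400, 1290, 1152 and 1275 CPM against 1522 to 2178 CPM, log2 -0.50 ± 0.12, adjusted p = 0.0115).

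Several mitochondrial and nuclear genes were lower in the left treated wells of the 6 lowest doses than in the right ones and in DMSO. MT-ND2, a mitochondrially encoded subunit of complex I, read 7.58 to 30.7 CPM in the 12 wells of the 6 lowest doses on the left and 61.3 to 189 CPM in the 12 on the right, against 100.1 to 191 CPM in DMSO left and 134 to 190 CPM in DMSO right. At 0.04 µM its left wells read 21.1 and 22.7 CPM and its right wells 123 and 144 CPM. MT-ATP6 had medians of 66.3 CPM in the left and 334 CPM in the right low-dose wells, with 277 and 383 CPM in DMSO. GTF2H5, a subunit of the repair and transcription factor TFIIH, had medians of 50.2 and 219.8 CPM beside 304 and 232 CPM in DMSO. SUB1, CLEC2B and ATP5MJ had the same order of groups. These were the 6 genes with the smallest p in the comparison of plate sides (edgeR adjusted p 4.41e-15 or less).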
